A study of Mus musculus with 2 samples.

Results

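Transcripts of 9 adhesion genes were followed across the dendritic cells of mouse spleen: the integrin α chains Itgal, Itgam, Itgax, Itgae and Itga4, the β chains Itgb1, Itgb2 and Itgb7, and the integrin ligand Icam1. The genes were chosen by symbol, and all 9 were among the 31053 genes listed for both libraries. Spleens came from naive mice, 7 to 9 weeks old, of the genotype Il7r-cre; Rosa26-lsl-tdTomato, in which a cell keeps the red reporter once it or an ancestor has switched on Cre from the Il7r gene. Cells were enriched with beads against CD11c, the protein product of Itgax, and split by flow sorting: L-cDC are the cells with tdTomato and M-cDC those without it. Single cells were profiled with a droplet method that tags the 3′ end of transcripts. Both groups shared the genotype, tissue and absence of treatment, and each had 1 library, for which the number of animals is not given in the sources used here. No difference could therefore be set against replicates; no test was made, and every interval below covers counting error only.

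An integrin is a pair of an α and a β chain that spans the membrane and binds other cells or matrix outside and actin inside. The β2 chain (Itgb2) is confined to leukocytes and pairs with αL (CD11a) to form LFA-1, with αM (CD11b) to form Mac-1 and with αX (CD11c). The β7 chain pairs with αE (CD103), which binds E-cadherin, or with α4, and α4 pairs with β1 as well to form VLA-4. ICAM1 is the main ligand of LFA-1 and holds T cells and antigen-presenting cells together. Among conventional dendritic cells of spleen, CD11b is a textbook mark of type 2 cells (cDC2) and CD103 of type 1 cells (cDC1), and CD11c is used to isolate both.

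By the gene annotation of GRCm38, the 3 genes of the CD11 chains lie on the plus strand of chromosome 7: Itgal from 127296260 to 127335138, Itgam from 128062640 to 128118491 and Itgax from 128129547 to 128150657. Itgb2 lies on chromosome 10 from 77530252 to 77565708 and Itgb7 on the minus strand of chromosome 15 from 102215995 to 102231944. Itgae lies on chromosome 11 from 73090583 to 73147446, Itga4 on chromosome 2 from 79255426 to 79333123, Itgb1 on chromosome 8 from 128685654 to 128733200 and Icam1 on chromosome 9 from 21015985 to 21028817. All 9 are annotated as protein-coding, and UMIs were counted per gene, so exons and isoforms were not told apart.

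RefSeq promoter windows of 300 bases, from 250 before the annotated start to 50 after it, were at hand for 6 of the 9 genes on GRCm38.p6 (Itga4, Itgam, Itgax, Itgb1, Itgb7 and Icam1). The 4 printed here belong to genes that differed strongly between classes of dendritic cell: Itgam, Itgax and Itgb7, low in mature cells, and Icam1, high in them. Each is given 5′ to 3′ on the gene's own strand, at chr7:128062390-128062689 (plus), chr7:128129300-128129599 (plus), chr15:102231886-102232185 (minus) and chr9:21015690-21015989 (plus) in that order. Capitals mark GAGGAA or its reverse complement TTCCTC, the core letters bound by the myeloid factor PU.1, and GGAAATTCC, a site of the NF-κB type, searched on both strands.
Itgam: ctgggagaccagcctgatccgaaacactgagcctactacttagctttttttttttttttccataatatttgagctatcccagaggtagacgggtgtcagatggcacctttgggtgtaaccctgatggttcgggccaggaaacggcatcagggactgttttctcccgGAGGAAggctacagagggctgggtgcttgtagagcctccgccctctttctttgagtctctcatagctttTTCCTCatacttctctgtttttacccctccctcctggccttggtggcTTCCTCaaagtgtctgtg
Itgax: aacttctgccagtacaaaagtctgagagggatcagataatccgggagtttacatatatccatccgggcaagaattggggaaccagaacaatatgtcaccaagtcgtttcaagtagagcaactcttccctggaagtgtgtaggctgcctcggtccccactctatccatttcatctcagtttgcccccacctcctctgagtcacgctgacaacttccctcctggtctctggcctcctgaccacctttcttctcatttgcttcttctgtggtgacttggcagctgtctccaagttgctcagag
Itgb7: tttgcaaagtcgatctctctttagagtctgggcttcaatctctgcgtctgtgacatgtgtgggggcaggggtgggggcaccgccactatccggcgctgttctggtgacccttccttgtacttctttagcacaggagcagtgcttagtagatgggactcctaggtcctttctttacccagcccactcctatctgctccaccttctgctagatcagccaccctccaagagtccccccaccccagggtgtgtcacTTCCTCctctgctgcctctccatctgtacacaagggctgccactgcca
Icam1: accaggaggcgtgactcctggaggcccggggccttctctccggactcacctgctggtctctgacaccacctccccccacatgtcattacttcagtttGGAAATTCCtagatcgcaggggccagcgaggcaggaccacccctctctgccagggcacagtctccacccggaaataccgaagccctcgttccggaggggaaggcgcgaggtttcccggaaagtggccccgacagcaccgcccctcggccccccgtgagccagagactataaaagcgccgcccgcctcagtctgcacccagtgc
The Itgam window held GAGGAA 3 times, with first bases at -84, -15 and 32 from the start, the latter pair on the minus strand. In the Itgb7 window the same letters occurred 1 time, at 2 on the minus strand, and those of Itgax and Icam1 held none. Of the windows not printed, that of Itgb1, a gene higher in mature cells, held GAGGAA 1 time, at -9. That of Itga4 held none. GGAAATTCC occurred only in the Icam1 window among the 6, at -153. Of 32851 promoter windows of the same length, 28.3% held GAGGAA and 0.317% held GGAAATTCC, and the motifs did not overlap here. These are matches of letters, and binding was not measured.

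Transcripts were counted by unique molecular identifiers (UMIs), 40170515 over 4939 barcodes in L-cDC and 52973960 over 6674 in M-cDC. After filtering, 3963 cells with a median of 8581 UMIs and 5607 cells with a median of 7667 were kept, and 5 of the kept barcodes occurred in both libraries. Joint clustering, done without any integrin or Icam gene, gave 18 clusters. Clusters 14 and 15 were cDC1-like (218 L-cDC and 755 M-cDC cells), cluster 6 cDC2-like (101 and 857), and clusters 0, 2, 3, 4, 5 and 11 mature Ccr7+ DC-like (2500 and 2897), the state in which dendritic cells migrate and prime T cells. The libraries did not fill the mature clusters alike: cluster 4 held 318 L-cDC cells and no M-cDC cell, and cluster 5 held 485 and 994. The labelled cell type held in most cells, but cluster 10 was NK-like (202 L-cDC cells and 1 M-cDC cell) and cluster 17 B cell-like (53 L-cDC cells and none). Clusters 1, 7, 8, 9 and 12 carried markers of more than 1 class or few UMIs and were left unnamed. The 20 mature markers summed to 21315 and 20897 CPM in the mature class of L-cDC and M-cDC, 705 and 636 in cDC1-like and 1755 and 1494 in cDC2-like cells. CPM here are UMIs scaled to the UMI total of that class or cluster in that library. Markers of other cells were low in these 3 classes: T cell markers summed to 1.41 to 16.4 CPM, macrophage markers to 5.78 to 77.0, NK markers to 68.8 to 336 and B cell markers to 101 to 207. The NK-like and B cell-like clusters of L-cDC held 6642 and 10948 CPM of their own lists. Neither held its own list alone. The NK-like cluster also held 1483 CPM of T cell markers and 929 CPM of markers of dividing cells. The B cell-like cluster also held 5650 CPM of mature markers. Monocyte markers, some of which dendritic cells also make, summed to 84.6 and 90.9 CPM in mature cells and to 780 to 1115 CPM in the cDC1-like and the cDC2-like class, with 7 to 10 of 10 detected. Their part in the differences below was not tested.

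Mature cells stood apart from cDC1-like and cDC2-like cells in most of the 9 genes, and in the same way in both libraries. Transcripts of the leukocyte β chains Itgb2 and Itgb7 and of Itgal were more than 10-fold lower in mature cells, Itgax was lower by a smaller factor, and Itgb1 and Icam1 were higher. Itga4 was higher in mature than in cDC1-like cells and close to its level in cDC2-like cells. Between cDC1-like and cDC2-like cells the α chains differed most, with Itgae in cDC1-like and Itgam in cDC2-like cells. The origin of the cells, L-cDC against M-cDC, went with few differences in the cDC1-like and mature classes. In cDC2-like cells the number of differences moved with the naming of clusters. Further differences lay in single clusters, among them the unnamed clusters 1 and 7.

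**Figure D1:**
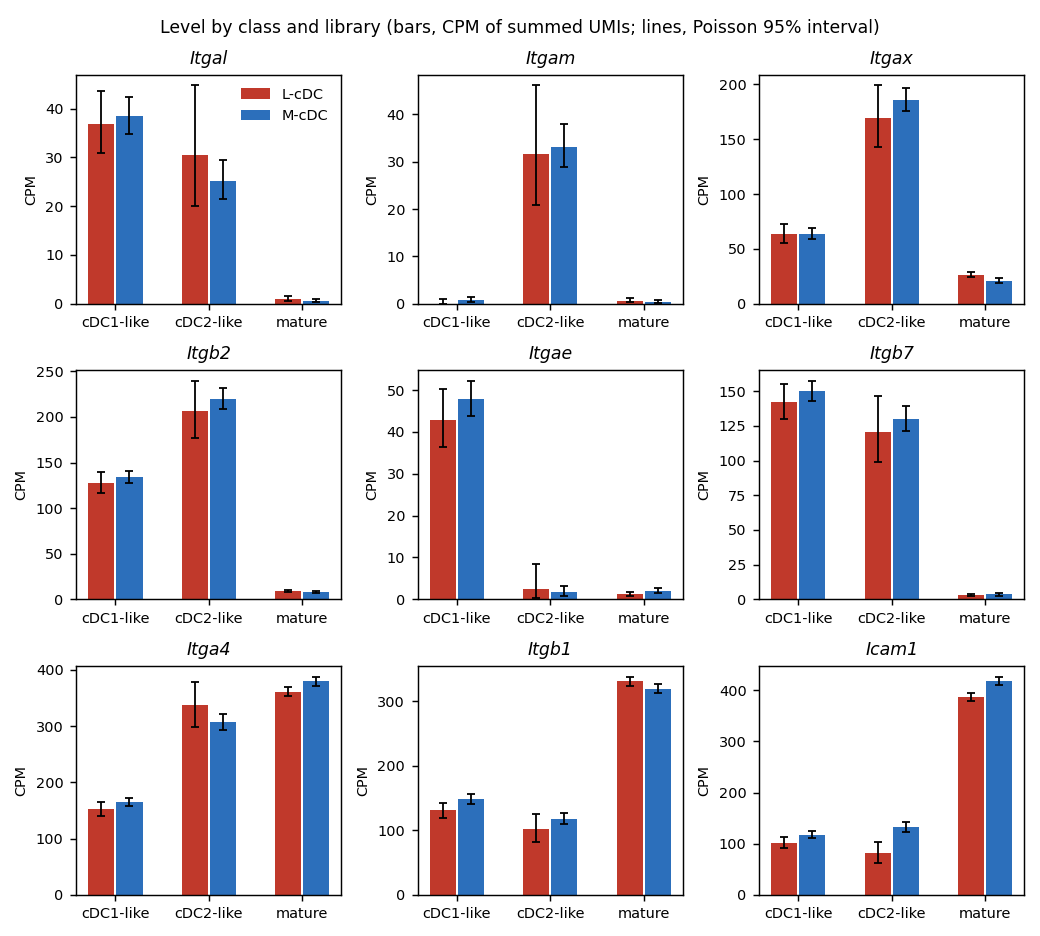
Level of each gene in CPM of summed UMIs (y axis) in the cDC1-like, cDC2-like and mature Ccr7+ DC-like classes (x axis) of each library, with Poisson 95% intervals as lines. Itgal, Itgb2 and Itgb7 are lowest in mature cells of both libraries, while Itgb1 and Icam1 are highest there.

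Itgb2, the β chain shared by all CD11 integrins, was at 128 CPM in L-cDC and 134 in M-cDC among cDC1-like cells and at 207 and 220 among cDC2-like cells. Mature cells had 9.23 CPM (exact Poisson 95% interval 8.02 to 10.6) in L-cDC and 7.74 (6.62 to 8.996) in M-cDC. Mature cells were thus 13.8-fold (11.7 to 16.4) and 17.3-fold (14.7 to 20.4) lower than cDC1-like cells, and 22.4-fold (18.2 to 27.5) and 28.4-fold (24.2 to 33.6) lower than cDC2-like cells. These are ratios within L-cDC and within M-cDC, with exact conditional binomial 95% intervals. Across 11 mature cluster-libraries (a cluster in 1 library, with at least 50 cells) Itgb2 ran from 3.51 to 21.0 CPM with a median of 6.66, against 111 to 220 CPM with a median of 140 across the 6 of cDC1-like and cDC2-like clusters. The ranges did not overlap.

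Itgal, the α chain of LFA-1, showed the same gap. Its level was 36.9 CPM (L-cDC) and 38.5 CPM (M-cDC) in cDC1-like cells and at 30.5 and 25.2 in cDC2-like cells, but at 0.976 and 0.546 in mature cells, from 22 and 12 UMIs. Mature cells were 37.8-fold (23.9 to 62.3) lower than cDC1-like cells in L-cDC and 70.4-fold (39.9 to 137) lower in M-cDC. All 11 mature cluster-libraries, at 0 to 2.11 CPM, were below all 6 of the cDC1-like and cDC2-like clusters, at 23.8 to 43.8.

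Itgam, the CD11b chain, was near the detection floor in cDC1-like and mature cells. The cDC2-like cells had 31.7 CPM (20.9 to 46.1) in L-cDC and 33.2 (28.8 to 38.04) in M-cDC, from 27 and 207 UMIs. In cDC1-like cells it had 0 UMIs in L-cDC, which allows up to 0.826 CPM by a floor of 3 counts, and 8 UMIs in M-cDC (0.742 CPM). In M-cDC cDC1-like cells were 44.7-fold (22.3 to 105) lower than cDC2-like cells; in L-cDC they were at least 38.4-fold lower against the floor of 3 counts over the class (29.1-fold by the lower limit of the exact interval with 0 UMIs), but with too few UMIs to enter the count of genes past 1.5-fold. Mature cells held 0.666 and 0.410 CPM.

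Itgax, the CD11c chain by whose protein the cells were enriched, had its highest level in cDC2-like cells, at 169 CPM in L-cDC and 186 in M-cDC. It was at 63.6 and 63.8 CPM in cDC1-like cells and at 26.4 and 21.1 in mature cells. The mature class was thus 2.41-fold (2.06 to 2.81) and 3.02-fold (2.68 to 3.40) below cDC1-like cells and 6.41-fold (5.31 to 7.71) and 8.80-fold (7.90 to 9.83) below cDC2-like cells. It was uneven within the mature class: cluster 2 held 74.4 CPM in L-cDC and 60.2 in M-cDC, near or above the cDC1-like clusters (51.6 to 70.2), while cluster 11 held 6.32 and 10.5. The bead enrichment acts on the protein, and its part in these transcript levels was not tested.

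Itgae, the CD103 chain, was a transcript of cDC1-like cells among the dendritic classes. These cells had 42.9 CPM (36.5 to 50.2) in L-cDC and 47.9 (43.8 to 52.2) in M-cDC, against 2.35 and 1.76 in cDC2-like cells and 1.24 and 1.91 in mature cells. The ratio of cDC1-like to cDC2-like cells was 18.3 (4.98 to 152) in L-cDC, where cDC2-like cells gave 2 UMIs, and 27.1 (15.04 to 54.7) in M-cDC. With cells thinned to 3000 UMIs, the Itgae log2 ratio in L-cDC was 1.15 in place of 4.19. That value was taken against the floor of 3 counts, since 0 of 97 thinned cDC2-like cells had an Itgae UMI. With Itgae in 15 of 218 thinned cDC1-like cells, too few UMIs were left for the gene to be considered. The cDC1-like clusters differed between themselves: cluster 14 held 53.1 CPM in L-cDC and 70.2 in M-cDC, and cluster 15 held 23.8 and 9.79. Markers of dividing cells summed to 31.6 and 35.9 CPM in cluster 14 and to 301 and 308 in cluster 15, and their part was not tested.

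Itgb7, which pairs with αE and α4, was at 142 and 150 CPM in cDC1-like and 121 and 130 in cDC2-like cells of L-cDC and M-cDC. Mature cells held 3.15 (2.46 to 3.97) and 3.41 (2.69 to 4.28) CPM, 45.2-fold (35.2 to 58.7) and 43.9-fold (34.8 to 56.1) below cDC1-like cells and 38.4-fold (28.1 to 52.7) and 38.2-fold (30.1 to 49.0) below cDC2-like cells. The 11 mature cluster-libraries lay between 0.877 and 5.92 CPM with a median of 3.20, the 6 others between 121 and 194 with a median of 127. Unlike Itgae, Itgb7 was higher in cluster 15 (179 and 194 CPM) than in cluster 14 (123 and 124), where the sum of markers of dividing cells was the lower of the 2, and the part of that difference was not tested.

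Itga4, the chain shared by the α4β7 and α4β1 pairs, was at 152 and 165 CPM in cDC1-like, 337 and 307 in cDC2-like and 361 and 380 in mature cells of L-cDC and M-cDC. Mature cells were 2.37-fold (2.17 to 2.59) and 2.31-fold (2.19 to 2.43) above cDC1-like cells, and 1.07-fold (0.953 to 1.21) and 1.24-fold (1.18 to 1.30) above cDC2-like cells, under 1.5-fold. Within the mature class it spanned 86.8 CPM, in cluster 11 of M-cDC, to 721 CPM, in cluster 2 of M-cDC, a range that took in all 6 cDC1-like and cDC2-like values (108 to 337).

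Itgb1, the partner of many α chains, was higher in every mature cluster. It was at 131 and 149 CPM in cDC1-like, 102 and 118 in cDC2-like and 331 and 320 in mature cells of L-cDC and M-cDC. The ratio of mature to cDC1-like cells was 2.53 (2.31 to 2.78) and 2.15 (2.04 to 2.27), and that to cDC2-like cells 3.24 (2.62 to 4.05) and 2.71 (2.52 to 2.93). The 11 mature cluster-libraries lay between 266 and 382 CPM with a median of 296, above all 6 others at 102 to 163. The unnamed cluster 1, which carried cDC2 and mature markers together, held 232 to 337 CPM over the libraries. Over the alternative settings, the log2 ratio of mature to cDC2-like cells ran from 0.34, under 1.5-fold, to 1.76 in L-cDC. In M-cDC it ran from 1.13 to 1.54.

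Icam1, the ligand of LFA-1, was at 102 and 118 CPM in cDC1-like, 81.0 and 132 in cDC2-like and 386 and 418 in mature cells of L-cDC and M-cDC. Mature cells were 3.78-fold (3.41 to 4.21) and 3.55-fold (3.35 to 3.77) above cDC1-like and 4.77-fold (3.76 to 6.13) and 3.17-fold (2.95 to 3.40) above cDC2-like cells. Its 11 mature values ran from 139 to 501 CPM with a median of 405 and lay above the 6 others, at 81.0 to 132. The unnamed cluster 1 held Icam1 at 305 to 410 CPM over the libraries. Over the alternative settings, the Icam1 log2 ratio of mature to cDC2-like cells ran from 0.73 to 2.61 in L-cDC and from 1.05 to 1.78 in M-cDC. Cluster 11, at 139 CPM in L-cDC and 147 in M-cDC, was the exception to the high levels and was also the mature cluster with the least Itga4 (96.3 and 86.8) and the lowest sum of mature markers (13817 and 13580 CPM). The part of the marker level in these values was not tested.

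**Figure D2:**
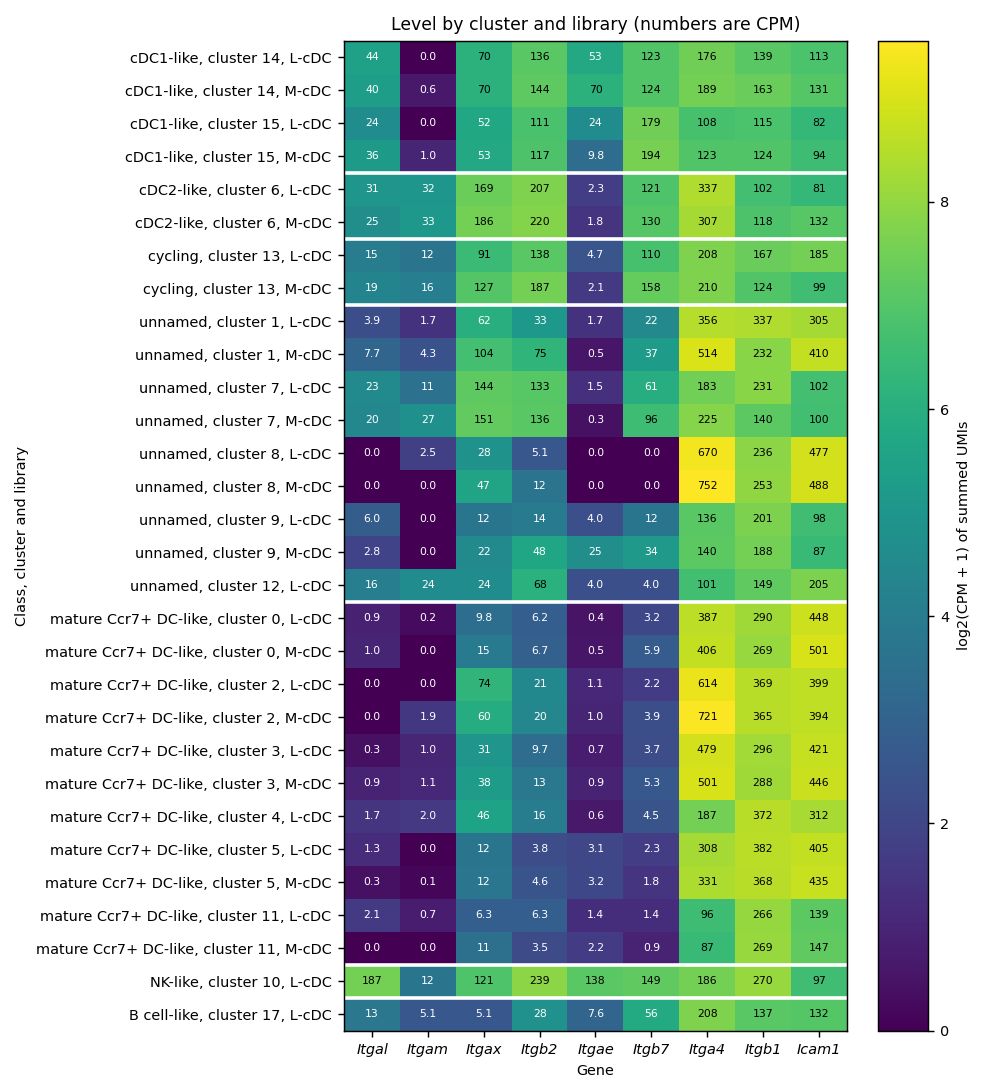
Level of each gene (columns) in every cluster of at least 50 cells in each library (rows), coloured by log2(CPM + 1) and labelled with CPM. The mature rows are dark for Itgal, Itgam, Itgb2, Itgae and Itgb7 and bright for Itgb1 and Icam1, with cluster 11 lower in Itga4 and Icam1.

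In counts, 5 of the 9 genes (Itgal, Itgb2, Itgb7, Itgb1 and Icam1) did not overlap between mature and cDC1-like or cDC2-like cluster-libraries. Among 6842 genes with enough counts, 27% did not overlap in either direction, 8.08% higher and 18.9% lower in mature cells. A gene was considered in a comparison of 2 sums with at least 20 CPM in the higher and at least 50 UMIs over both. In the comparison of mature with cDC1-like cells all 8 considered genes passed 1.5-fold in each library, 3 higher (Itga4, Itgb1, Icam1) and 5 lower (Itgal, Itgax, Itgb2, Itgae, Itgb7), where 60.7% of all considered genes did so in L-cDC (27.6% higher, 33.1% lower) and 62.5% in M-cDC (26.2% higher, 36.3% lower). Their median log2 ratio was -2.53 in L-cDC and -2.85 in M-cDC, against -0.10 and -0.17 for all considered genes. Against cDC2-like cells, 5 of 6 considered genes passed in L-cDC (background 60.2%, with 21.2% higher and 39% lower) and 7 of 8 in M-cDC (background 60.4%, with 20.5% higher and 39.9% lower). Itgb1 and Icam1 were higher there; Itgax, Itgb2 and Itgb7 were lower in both libraries, and Itgal and Itgam were lower in M-cDC and below the minimum of UMIs in L-cDC. The comparisons with cDC1-like and cDC2-like cells share the mature cells and are not independent.

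Between cDC1-like and cDC2-like cells, 4 of 8 considered genes passed 1.5-fold in L-cDC, where 37.7% of all considered genes did (12.3% higher, 25.4% lower), and 6 of 9 in M-cDC, where 31.6% did (10.7% higher, 20.9% lower). Itgae was higher in cDC1-like cells of both libraries, and Itgax, Itgb2 and Itga4 were lower. Itgax was 2.66-fold (2.14 to 3.29) lower in L-cDC and 2.92-fold (2.65 to 3.21) in M-cDC, Itgb2 1.62-fold (1.35 to 1.93) and 1.64-fold (1.53 to 1.77), and Itga4 2.21-fold (1.91 to 2.55) and 1.86-fold (1.75 to 1.99). Itgal was 1.53-fold (1.27 to 1.85) higher in cDC1-like cells of M-cDC, and 1.21-fold (0.789 to 1.92) in L-cDC. Itgb7, Itgb1 and Icam1 were under 1.5-fold in both libraries with the classes as named. Over the alternative settings, however, their log2 ratios in L-cDC ran from 0.07 to 1.41, from -1.002 to 0.42 and from -1.19 to 0.81. When cluster 1 was counted as cDC2-like, a choice made after seeing the data, Itgb2 turned to higher in cDC1-like cells of L-cDC, at a log2 ratio of 0.52.

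L-cDC and M-cDC were then compared within each class, the question for which the libraries were made. In cDC1-like cells 0 of 8 considered genes passed 1.5-fold, where 1.05% of all considered genes did, and the ratios of L-cDC to M-cDC ran from 0.868 (0.771 to 0.975) for Icam1 to 0.997 (0.855 to 1.16) for Itgax. In mature cells 0 of 4 passed (background 1.62%). Over the whole class the Itgax ratio was 1.25 (1.10 to 1.41), and those of Itga4, Itgb1 and Icam1 were 0.9501, 1.04 and 0.923. Without cluster 4, which only L-cDC fills and which held Itgax at 45.5 CPM, the Itgax log2 ratio was 0.11 in place of 0.32. Within the mature clusters that both libraries hold, Itgax had a ratio of 0.675 (0.449 to 1.01) in cluster 0, 1.24 (0.910 to 1.70) in cluster 2, 0.813 (0.662 to 0.998) in cluster 3, 0.985 (0.712 to 1.35) in cluster 5 and 0.601 (0.246 to 1.34) in cluster 11. In cDC2-like cells 1 of 8 passed (background 7.61%, with 4.4% lower). That gene was Icam1, with 81.0 CPM (63.03 to 103) and 132 CPM (123 to 141) in the 2 origins, 1.63-fold (1.27 to 2.12) lower in L-cDC from 69 and 824 UMIs. The L-cDC cDC2-like class is 101 cells, and 1 cell gave 11.6% of its Icam1 UMIs. With cells classed by marker means the Icam1 log2 ratio was 0.27 in place of -0.71, and with cluster 1 counted as cDC2-like 0.21.

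**Figure D3:**
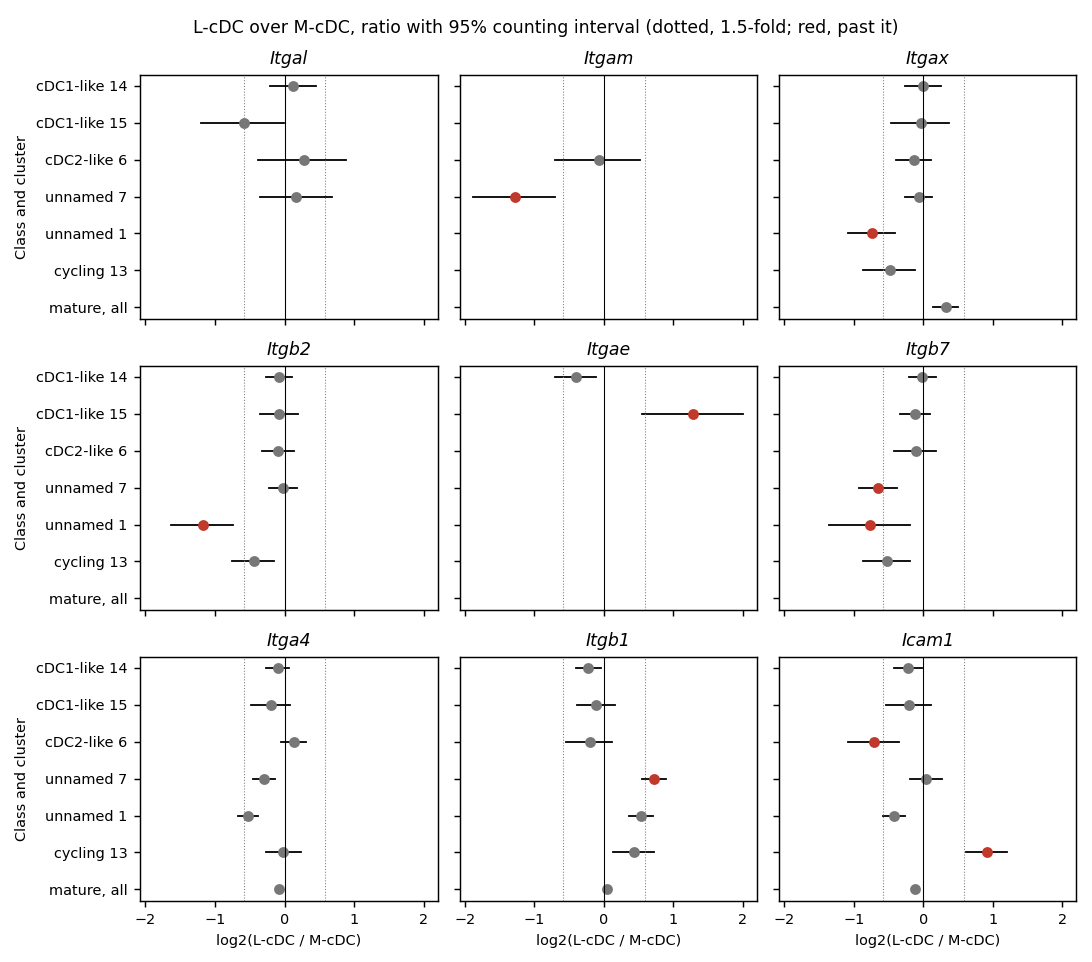
Log2 ratio of L-cDC to M-cDC (x axis) for each gene in the clusters of the cDC1-like and cDC2-like classes, in clusters 7, 1 and 13 and in all mature cells (y axis), with 95% counting intervals; genes with too few UMIs are not drawn. Most points lie within the dotted 1.5-fold lines, and the red points beyond them are Icam1 in clusters 6 and 13, Itgae in cluster 15, Itgam, Itgb7 and Itgb1 in cluster 7 and Itgax, Itgb2 and Itgb7 in cluster 1.

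Further differences between the origins lay in single clusters. In cluster 1, which carried cDC2 and mature markers together, 3 of 6 considered genes were lower in L-cDC, where 19% of all considered genes passed 1.5-fold and 12.7% were lower. Itgb2 was at 33.2 CPM in L-cDC and 75.2 in M-cDC (2.26-fold lower, 1.67 to 3.10), Itgax at 62.0 and 104 and Itgb7 at 21.6 and 36.6. Itgb1 was at 337 and 232 CPM, 1.45-fold (1.28 to 1.64) higher. The sum of the 20 mature markers in cluster 1 was 12987 CPM in L-cDC and 11600 in M-cDC, with all 20 detected in both, and that of the cDC2 markers 1072 and 1652. Monocyte markers summed to 117 and 244 CPM there, and markers of plasmacytoid dendritic cells to 436 and 295; their part in these differences was not tested.

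In cluster 7, led by Cd209d, Mgl2 and Siglech, 3 of 8 considered genes passed 1.5-fold (background 9.42%, with 4.54% higher and 4.88% lower). Itgb1 was at 231 CPM in L-cDC and 140 in M-cDC (1.65-fold higher, 1.46 to 1.86), Itgam at 11.2 and 27.1 (2.43-fold lower, 1.62 to 3.69) and Itgb7 at 61.1 and 95.8 (1.57-fold lower, 1.30 to 1.89). Macrophage markers summed to 42.6 and 98.9 CPM there and mature markers to 2790 and 1823. Markers of plasmacytoid dendritic cells, among them the leading gene Siglech, summed to 1957 and 1054 CPM and those of cDC1 to 698 and 463. The part of these markers was not tested. In cluster 13, of dividing cells, 1 of 6 passed (background 17.8%, with 7.28% higher): Icam1 was at 185 CPM in L-cDC and 98.5 in M-cDC, 1.88-fold (1.53 to 2.31) higher. The sum of mature markers in cluster 13 was 5205 CPM in L-cDC and 1418 in M-cDC and that of plasmacytoid markers 1095 and 320, whose part was not tested, and 10.7% of the Icam1 UMIs of L-cDC came from 1 of 55 cells. In cluster 15, 1 of 8 passed (background 5.36%, with 1.39% higher): Itgae was at 23.8 CPM (16.1 to 34.0) and 9.79 (6.96 to 13.4), 2.43-fold (1.46 to 4.02) higher in L-cDC, from 30 and 39 UMIs. In cluster 14 the same gene was 1.32-fold (1.08 to 1.62) lower in L-cDC.

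Ordered by mean level over clusters, Itgam and Itgax were highest in cluster 6 (cDC2-like), Itgb7 in cluster 15 (cDC1-like), Itgb1 in cluster 5 (mature, 368 to 382 CPM over the libraries) and Itga4 and Icam1 in cluster 8 (670 to 752 and 477 to 488 CPM). Of the marker lists, the mature one scored highest in cluster 8, at 0.739 against 1.067 for the same list in cluster 0. Cluster 8 had a median of only 1882 UMIs, and its range overlapped that of cluster 2 for Itga4 and cluster 0 for Icam1. Itgb1 in cluster 5 overlapped cluster 4, while Itgb7 in cluster 15 lay above the next cluster. Itgal, Itgb2 and Itgae were highest in the NK-like cluster 10 of L-cDC, at 187, 239 and 138 CPM, and Itgax was at 121 CPM there. Of the 202 cells of that cluster in L-cDC, 61 had an Itgae UMI. In the B cell-like cluster, Itgam and Itgax were at 5.06 CPM each and Itgae at 7.597. Clusters 9 and 12, which carried mature markers beside those of cDC1 and of macrophages, held Itgb2 at 14.05 and 47.7 CPM (L-cDC and M-cDC of cluster 9) and 68.4 CPM (L-cDC of cluster 12).

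Shares of cells with a UMI depend on depth, so each cell was thinned to 3000 UMIs. Cells with an Itgb2 UMI made up 33.0% of cDC1-like cells in both libraries, 51.5% (exact Clopper-Pearson 95% interval 41.2 to 61.8) and 47.1% (43.6 to 50.5) of cDC2-like cells and 2.20% (1.65 to 2.87) and 2.30% (1.78 to 2.93) of mature cells in L-cDC and M-cDC. Unthinned, the mature shares were 7.36% and 5.28%, and the cDC1-like shares 83.9% and 80.3%. For Itgb7 the thinned shares were 33.0% and 37.0% of cDC1-like, 30.9% and 29.9% of cDC2-like and 0.831% and 0.921% of mature cells. In the B cell-like cluster, 7.69% and 17.3% of 52 thinned cells had a UMI of Itgb2 and Itgb7, and the mature shares lay below these. B cells make both chains too, so no class here gives the level of free RNA for them. The median depth before thinning was 6328 UMIs there and 8714 and 7241 in the mature class.

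Itgax was seen in 16.97% and 17.4% of cDC1-like, 43.3% and 41.0% of cDC2-like and 6.19% and 6.06% of mature cells, against 1.92% (0.0487 to 10.3) of B cell-like cells. Itgam was seen in 12.4% and 9.32% of cDC2-like cells and in 0 of 218 cDC1-like cells of L-cDC, which allows a share of cells with a UMI of up to 1.38% by the floor of 3 counts and 1.68% by the exact interval. Itgae was seen in 6.88% and 13.1% of cDC1-like cells, against 3.85% (0.469 to 13.2) of B cell-like cells. Icam1 was seen in 65.4% (63.5 to 67.3) and 66.6% (64.8 to 68.3) of mature cells, 26.1% and 29.4% of cDC1-like and 15.5% and 32.3% of cDC2-like cells, and Itgb1 in 58.9% and 57.0%, 30.3% and 36.2%, and 30.9% and 28.6%. Of B cell-like cells, 28.8% (17.1 to 43.1) had an Icam1 UMI and 19.2% (9.63 to 32.5) an Itgb1 UMI. The Icam1 shares of cDC1-like and cDC2-like cells lay within or below that interval, and those of mature cells above it. The B cell-like cluster itself held Icam1 at 132 CPM and Itgb1 at 137 CPM, beside 5650 CPM of mature markers. Its shares therefore cannot serve as a level of free RNA for these genes.

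**Figure D4:**
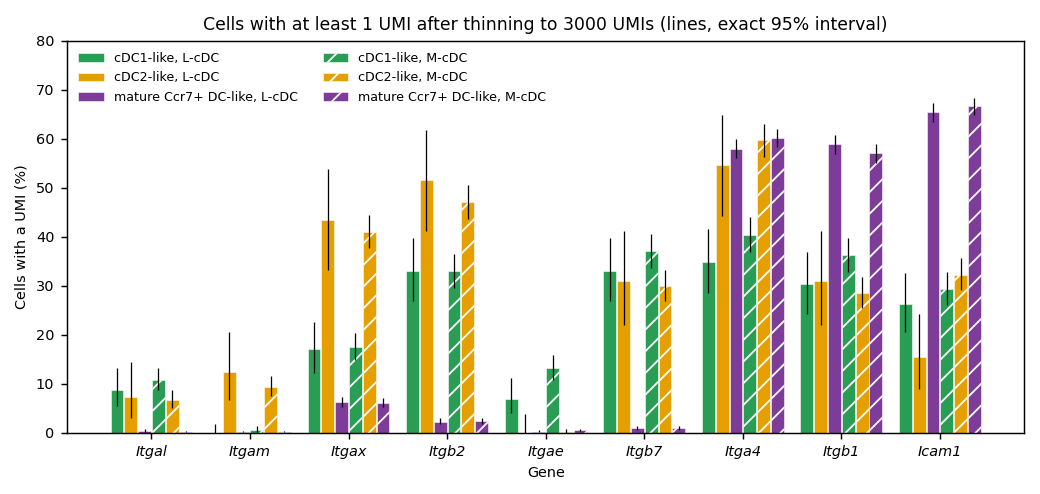
Percent of cells with at least 1 UMI of each gene (x axis) after each cell was thinned to 3000 UMIs, by class (colour) and library (hatched, M-cDC), with exact Clopper-Pearson 95% intervals. Purple bars, mature cells, are near 0 for Itgal, Itgam, Itgb2, Itgae and Itgb7 and the tallest for Itgb1 and Icam1.

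In most cases the interval of the share of cells with a UMI of both partner chains took in the product of the separate shares. In mature cells of L-cDC, 34.8% (32.9 to 36.7) had a UMI of both Itga4 and Itgb1, against a product of the shares of 34.1%, and in M-cDC 34.9% (33.1 to 36.7) against 34.3%. Itgax and Itgb2 were seen together in 24.7% (16.5 to 34.5) and 18.9% (16.3 to 21.7) of cDC2-like cells, against products of 22.3% and 19.3%. Itgax and Itgb2 were the exception in mature cells of L-cDC, with 0.374% (0.171 to 0.709) against a product of 0.136%, from 9 cells. In M-cDC the values were 0.248% (0.0998 to 0.510) and 0.140%, and without thinning both libraries were above the product, at 2.44% (1.87 to 3.12) against 1.21% and 1.31% (0.930 to 1.80) against 0.711%. Unthinned cells differ in depth, and the mature clusters pooled here differed in both genes. As means of both libraries, Itgax and Itgb2 were at 67.3 and 20.7 CPM in cluster 2 and at 8.42 and 4.92 CPM in cluster 11. The part of depth and of cluster in the joint shares was not tested. Itgae and Itgb7 were seen together in 4.29% (2.95 to 6.002) of M-cDC cDC1-like cells, against 4.86%. Over 6 pairs, 3 classes and 2 libraries, the joint share was above the product in 17 of 36 cases, and in 28 of 36 without thinning. Some of the thinned cases could not or could hardly lie above it. For Itgam and Itgb2 the product was 0% in cDC1-like and 0.00274% in mature cells of L-cDC, and no cell held both. The count of 17 is therefore not a split between like cases. Cells in which neither chain was seen may still hold both.

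Other integrin chains were mostly too low to consider: 1 to 3 of 19 listed genes had enough counts in a comparison of classes. Itgb8, the β chain that pairs with αv, was at 58.3 CPM in L-cDC and 84.7 in M-cDC mature cells and at 0.275 and 0.649 CPM in cDC1-like cells, from 1 and 7 UMIs, which makes it 130-fold (63.2 to 325) higher in mature cells of M-cDC. Itga8 was at 20.9 and 24.0 CPM in cDC1-like cells, against 0 UMIs in L-cDC and 1 UMI in M-cDC among cDC2-like cells and 4 and 5 UMIs in mature cells. Itgav was 2.40-fold (1.99 to 2.89) lower in mature than in cDC1-like cells of M-cDC.

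Of 19 listed ligands and counter-receptors of integrins, 4 were considered for mature against cDC1-like cells in L-cDC and all 4 were higher (Vcam1, F11r, Selplg and Cd47), where 27.6% of all considered genes were. These 4 were higher in M-cDC too. Vcam1, the ligand of α4β1, was at 44.3 CPM in L-cDC and 45.7 in M-cDC mature cells, against 1.93 and 3.62 in cDC1-like cells. F11r, the junction molecule JAM-A that binds LFA-1, was at 41.4 and 39.8 CPM against 2.20 and 1.67. Cd47 was 2.08-fold (1.97 to 2.20) and 1.96-fold (1.90 to 2.02) higher in mature than in cDC1-like cells, and Selplg, the P-selectin ligand, 1.78-fold (1.66 to 1.91) higher in L-cDC. The median log2 ratio of the considered genes was 2.65 in L-cDC.

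Of 37 genes for the activation of integrins and their link to actin, 29 were considered for mature against cDC1-like cells, with 8 higher and 11 lower in L-cDC and 8 higher and 13 lower in M-cDC, and with median log2 ratios of -0.10 and -0.15. Over all considered genes 60.7% and 62.5% passed, with medians of -0.10 and -0.17, so the list's shares and medians were near the background. Tln1 (talin) and Fermt3 (kindlin 3), which bind β chains and activate them, were lower in mature cells of both libraries, as were Vasp and Zyx, which act on actin at adhesions. Parvg, a linker of integrin complexes to actin in leukocytes, was at 0.577 and 1.27 CPM in mature cells and 51.7 and 55.5 in cDC1-like cells. Cyth4, of the cytohesin family, was at 6.70 and 5.28 CPM against 124 and 123. Among the higher genes, the tetraspanin Cd63 was at 853 and 918 CPM against 13.5 and 7.98, and Actn1, the actin cross-linker α-actinin, at 261 CPM against 42.9 in L-cDC. Between the origins, Flna (filamin A) and the tetraspanin Cd81 passed 1.5-fold over the whole mature class, which includes cluster 4 of L-cDC. Neither did so in the clusters of the mature class that both libraries hold and where it had enough counts. There the ratios of L-cDC to M-cDC were 0.906 to 1.22 for Flna in clusters 0, 2, 3 and 5, and 0.955 and 0.936 for Cd81 in clusters 5 and 11. Outside that class, Cd81 was past 1.5-fold lower in L-cDC in the unnamed cluster 9 and the dividing cluster 13. Between cDC1-like and cDC2-like cells, Cd81 was 8.58-fold (5.51 to 14.1) and 6.43-fold (5.56 to 7.48) higher in cDC1-like cells, and Fyb, Cytip and Apbb1ip, which act in the control of leukocyte integrins, were lower in both libraries.

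As a description, the pattern of each gene over 30 cluster-libraries was compared with those of 8456 genes by Pearson's r of log2(CPM + 10). The points share libraries and, between both libraries of a cluster, cell type, so no p-value is given. Itgb2 and Itgb7 had an r of 0.92 with each other, and the genes most like them were Myo1f, a leukocyte myosin, at 0.97, followed by Cyth4 and Dars at 0.95, and Anxa6, Plp2 and Pdia6 at 0.98, 0.98 and 0.96. For Itgal the closest was Kbtbd11 at 0.98. Icam1 was closest to Gpr132 (0.97), Ppp1r15a (0.95) and Prr14 (0.95), and had an r of 0.75 with Itga4, 0.74 with Itgb1, -0.70 with Itgb2 and -0.77 with Itgb7. Itga4 was closest to Coq10b (0.95), Itgae to Itm2a (0.93), Itgam to Gm5547 (0.92), and Itgax and Itgb1 to Knop1 and Tnfrsf9 (0.87 each).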

How the data were processed

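Single-cell libraries had been made with the 10x Genomics 3′ kit (v3.1), per the labels' protocols. Per the file headers, Cell Ranger 6.1.2 wrote the deposited matrices of unnormalized UMI counts, with GRCm38 (mm10) named in the submitters' processing notes. The deposited files of other content list genes and barcodes.

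Barcodes with under 500 genes or over 10% mitochondrial UMIs were removed. Scrublet's thresholds were 0.632 (3 cells) and 0.277 (241 cells), so the lower was used for both libraries, after seeing them, and removed 123 and 241 cells. Cells were clustered jointly (scanpy 1.11.5, 2000 variable genes, 30 components, 15 neighbours, Leiden resolution 1) without integrin, Icam, mitochondrial, ribosomal protein, immunoglobulin, T cell receptor, hemoglobin and sex genes. Clusters were named by fixed markers with a rule set after a first look at the clusters. It required a scaled score of at least 0.3, at least 3 markers at 10 CPM and a share of at least 0.5 of the list's markers at 2-fold over clusters of other lists. No other dendritic cell list might reach that share. UMIs were summed per class or cluster and library and scaled to CPM; a class at 0 was set to 3 counts in ratios. Poisson, conditional binomial and Clopper-Pearson intervals are exact, at 95%. PCR duplicates are removed by UMIs, and intervals ignore spread between animals. With 1 library per group no test was possible. The calculation was tested on simulated data. Members, lists and the rule for named genes (the 9 genes, up to 4 considered genes of largest ratio per list, the 3 most alike genes, markers) were chosen with earlier results of these data known; genes named beyond it were chosen after their values were seen. A gene that the rule covers is not reported here. Gene positions came from GENCODE by Ensembl identifier, found for 9 of 9 genes. Alternatives varied filters, doublets, clustering, naming, scaling, thinning and minimum level. Python 3.11.15, numpy 2.4.6, scipy 1.17.1 and pandas 2.3.3 were used.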

Additional observations from a re-analysis of the deposited data

Results flagged for a closer look

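Icam1 differed between L-cDC and M-cDC in opposite directions in 2 clusters. Its log2 ratio of L-cDC to M-cDC was -0.71 in the cDC2-like cluster 6 (81.0 against 132 CPM) and 0.91 in the dividing cluster 13 (185 against 98.5 CPM), with 95% counting intervals that leave out a ratio of 1 in both. The difference between the clusters was not tested, since each group is 1 library. Mature markers summed to 1755 CPM in L-cDC and 1494 in M-cDC in cluster 6 and to 5205 and 1418 in cluster 13.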

How the results depend on the processing

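No paired analysis was possible because each group has 1 library, and no replicate could be left out. Over 18 alternative settings, 1014 of 1224 values of single genes stayed within the counting interval of the main value, 206 moved out of it and 4 reversed. Only genes past 1.5-fold in the main setting could count as reversed, so changes of sign in other genes are among the values that stayed or moved. The log2 ratio of cDC1-like to cDC2-like cells in L-cDC, for example, kept its sign in 9 of 14 settings for Itgb1 and in 9 of 14 for Icam1. The counts of genes past 1.5-fold between mature and cDC1-like or cDC2-like cells, and between origins in mature cells, stayed within 1.5 times in every setting that gave a value. Single ratios moved more: the Itgb1 log2 ratio of mature to cDC2-like cells in L-cDC fell as low as 0.34, from 1.70. At Leiden resolutions 0.5 and 2.0 no cluster was named cDC2-like, so comparisons with that class gave no value there. The reversed values were the Icam1 log2 ratio of L-cDC to M-cDC in cDC2-like cells, 0.27 with cells classed by marker means and 0.21 with cluster 1 counted as cDC2-like, and the Itgb2 log2 ratio of cDC1-like to cDC2-like cells in L-cDC, 0.27 and 0.52 under the same settings.

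In cDC1-like cells 1 gene passed 1.5-fold between origins with each library clustered alone and 1 with cells thinned to 3000 UMIs, in place of 0. In cDC2-like cells the count of 1 became 2 at a minimum of 200 genes, 0 at 1000 genes, 0 at 5% mitochondrial UMIs, 0 without doublet removal, 2 with the libraries clustered separately, 4 with cells classed by marker means, 3 with cluster 7 and 6 with cluster 1 counted as cDC2-like. Between cDC1-like and cDC2-like cells the count of 4 in L-cDC became 7 with cluster 1 counted as cDC2-like, and that of 6 in M-cDC became 3 at a minimum of 50 CPM. Joint shares above the product numbered 28 in place of 17 without thinning. Over all genes, the percent past 1.5-fold between origins ran from 0.521 to 10.3 in cDC1-like, 2.94 to 20.8 in cDC2-like and 0.761 to 3.72 in mature cells. The causes were not tested. The 101 L-cDC cDC2-like cells limit every ratio that uses them.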
